A study of Mus musculus with 6 samples.

Results

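A set of 6 genes of the hexosamine pathway and O-GlcNAc transfer was followed in CT26 tumors of mice treated with the kinase inhibitor H89: Ogt, Gfpt1, Gfpt2, Gnpnat1, Pgm3 and Uap1. They are 6 of the 23557 genes in the table, listed by name because of their place in the pathway, and the list was selected on a measured value, since Ogt had been seen to rise in H89 tumors in these same samples. CT26 is a colon carcinoma line from BALB/c mice, and H89 is a small-molecule inhibitor of protein kinase A that also inhibits other kinases. Female BALB/c mice, 7 weeks old when purchased, carried subcutaneous tumors grown from 500000 injected cells. From day 6 they received 2 intraperitoneal injections a week, of H89 at 10 mg/kg dissolved in NaCl in one group and of NaCl in the control group, and whole tumors were removed on day 14. Total RNA of 3 NaCl and 3 H89 tumors was sequenced on a BGISEQ-500, with 27067349 to 31958793 estimated counts per tumor. All tumors came from 1 cell line grown under the skin rather than in the colon, and the host cells inside the tumor were sequenced with the cancer cells. The labels number the tumors but do not say whether mice shared a cage or a day, so the errors below rest on the spread between these tumors.

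The hexosamine pathway turns a small share of the cell's fructose-6-phosphate into UDP-N-acetylglucosamine (UDP-GlcNAc), the activated sugar for N-glycans, glycosphingolipids, hyaluronan and GPI anchors. GFAT enzymes (Gfpt1, Gfpt2) take the first and rate-limiting step, with glutamine as the nitrogen donor. Gnpnat1 then adds the acetyl group, Pgm3 moves the phosphate and Uap1 joins the sugar to UDP. Ogt uses UDP-GlcNAc to place single O-GlcNAc sugars on serines and threonines of nuclear and cytosolic proteins, and Oga removes them. The modification responds to nutrient supply, is often raised in colon and other cancers, and cells are known to adjust Ogt mRNA to the level of O-GlcNAc in part through an intron that is kept in nuclear Ogt transcripts.

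Levels are given as CPM, the count of a gene relative to the total of its library, scaled by the trimmed mean of M-values (TMM), a library factor that takes most genes as level. Changes are log2 fold changes of H89 over NaCl with a standard error (SE) derived from the F statistic of the edgeR test. That test pulls each gene's variance toward the trend of all genes, so an SE is not that gene's own spread alone. For the 6 genes these changes are a description without a test, because this same comparison chose them.

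Ogt was higher in H89 tumors. It lies on chromosome X (ENSMUSG00000034160, chrX:101640060-101684351, plus strand, GRCm38), where the annotation gives 7 transcripts, 2 of them protein-coding and 3 with a retained intron. The table holds 1 value per gene, so these transcripts were not measured apart. The 250 bases before the first of its RefSeq starts (chrX:101639801-101640050, plus strand, GRCm38.p6) are printed because Ogt is the gene the comparison turns on, next to those of Uap1 (chr1:170174965-170175214, minus strand), the enzyme just before it in the pathway and the only 1 of the 5 matched members with a CRE core. Capitals mark TGACG, the core of the cAMP response element (CRE) bound by the protein kinase A target CREB, and GGGCGG, the SP1 box, each in either orientation.
Ogt: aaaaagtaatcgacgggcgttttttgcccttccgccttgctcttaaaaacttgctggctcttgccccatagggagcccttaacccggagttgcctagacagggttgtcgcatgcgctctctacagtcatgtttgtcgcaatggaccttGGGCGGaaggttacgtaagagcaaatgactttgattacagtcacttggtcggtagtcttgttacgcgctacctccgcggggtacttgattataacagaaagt
Uap1: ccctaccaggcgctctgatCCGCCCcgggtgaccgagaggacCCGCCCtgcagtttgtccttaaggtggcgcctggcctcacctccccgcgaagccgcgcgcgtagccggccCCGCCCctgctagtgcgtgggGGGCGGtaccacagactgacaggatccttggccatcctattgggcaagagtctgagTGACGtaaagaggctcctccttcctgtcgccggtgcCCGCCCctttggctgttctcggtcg

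The Ogt stretch held 1 SP1 box and no CRE core, and its GC content was 49.6%, against a mean of 53.2% over 32851 RefSeq promoter windows of that length. The Uap1 stretch held 5 SP1 boxes and 1 CRE core, which began 61 bases before the start, at a GC content of 67.2%. An SP1 box was found in 32.7% of all windows, a CRE core in 17.8%, the E-box CACGTG in 6.0% and the full element TGACGTCA, which contains the core on both strands, in 1.5%. None of the windows of the 5 matched members held the full element. Gnpnat1 had no entry. A match of letters is a description of the sequence, not a bound site.

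In the NaCl tumors Ogt stood at 132.9, 122.5 and 135.0 CPM, and in the H89 tumors at 202.0, 218.9 and 241.8 CPM. Every H89 tumor lay above every NaCl tumor, and the lowest H89 tumor was well clear of the highest control. The mean was 130.1 ± 6.70 CPM in NaCl and 220.9 ± 19.96 CPM in H89 (SD, 3 tumors a group). The fitted log2 fold change was 0.76 (SE 0.095), or 1.70-fold. With library totals in place of TMM the ratio of the means was 1.79. Over 12 other settings, including the removal of each tumor, the log2 fold change of Ogt ranged from 0.69 to 0.85. The Ogt counts behind these values ran from 3283 to 7947 per tumor, and include fractions from the authors' quantification. The leukocyte markers moved in the same direction, with a median log2 fold change of 0.96 over 9 genes, and the fibroblast markers by 0.32 over 9 genes. More cells of a type cannot be told apart from more RNA per cell in bulk tumors, and the part of these cells in the Ogt level was not tested.

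**Figure D1:**
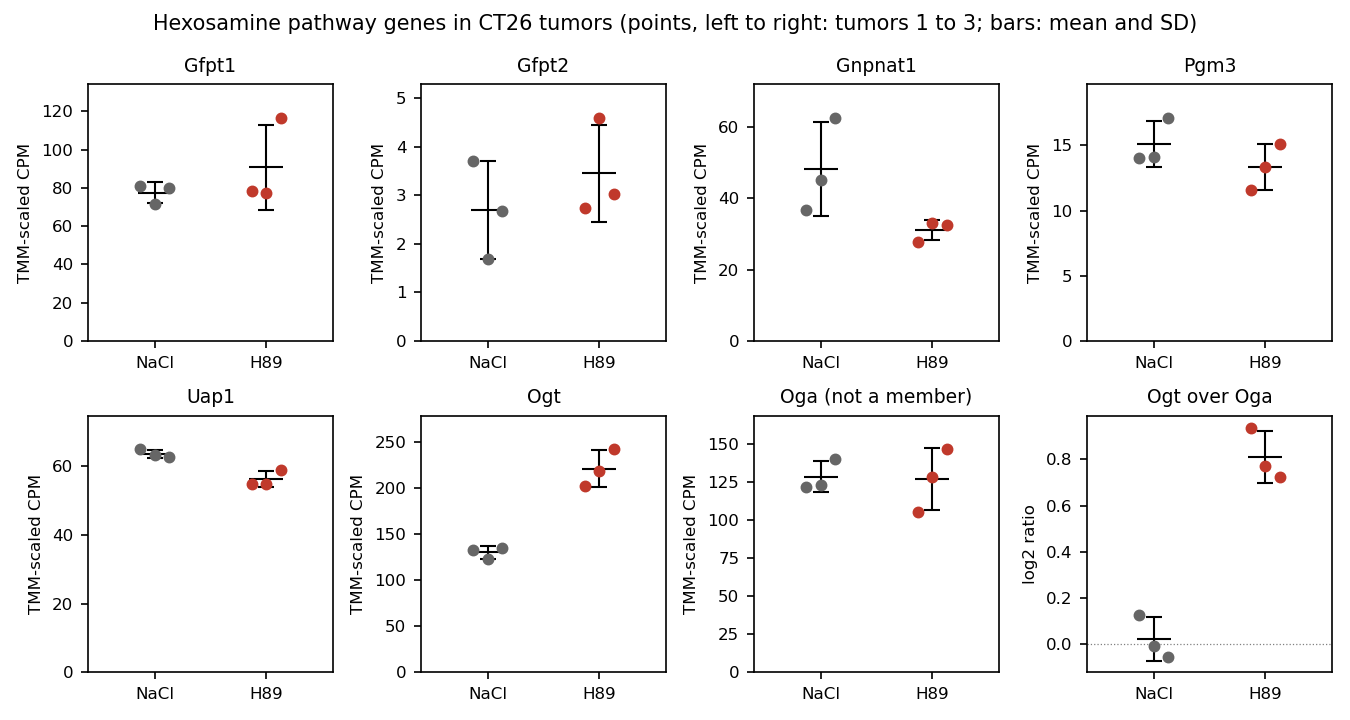
Level of each gene in TMM-scaled CPM (vertical axes from 0) in the 3 NaCl (grey) and 3 H89 (red) tumors, and in the last panel the log2 ratio of Ogt to Oga. Points are tumors 1 to 3 from left to right and bars are mean and SD. Ogt lies between 122.5 and 135.0 CPM in NaCl tumors and between 202.0 and 241.8 in H89 tumors, while Oga overlaps.

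Gfpt1 (chr6:87042846-87092197), the widely expressed GFAT enzyme, overlapped between the groups. NaCl tumors held 81.13, 71.37 and 80.2 CPM of Gfpt1, and H89 tumors 78.63, 77.4 and 116.6 CPM. The higher mean in H89 came from H89 tumor 3, the only tumor above the others. The log2 fold change was 0.23 (SE 0.162) with all tumors and 0.007 without H89 tumor 3.

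Gfpt2 (chr11:49794178-49838613), the second GFAT gene, was the lowest of the set. Its levels were 3.707, 1.693 and 2.67 CPM in NaCl tumors and 2.748, 4.593 and 3.017 CPM in H89 tumors, from 45 to 151 counts per tumor. The groups overlapped, with a log2 fold change of 0.36 (SE 0.33) that ranged from 0.10 to 0.67 over the settings. Per transcript length, Gfpt2 made up between 4.78% and 11.16% of the GFAT transcripts in each tumor, so Gfpt1 carried most of them in all 6.

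Gnpnat1 (chr14:45376334-45404913, minus strand), the acetyltransferase, was lower in every H89 tumor. NaCl tumors held 36.64, 45.27 and 62.61 CPM and H89 tumors 27.81, 33.06 and 32.6 CPM. The H89 tumors lay close together, while the NaCl tumors were spread widely, with NaCl tumor 3 the highest. The log2 fold change was -0.63 (SE 0.187), and -0.39 without NaCl tumor 3. Exons of Gnpnat1 overlap those of Gm25353 and of Styx, the latter on the opposite strand. Its counts are fractional estimates, and how many reads it shared with these neighbours was not measured.

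Pgm3 (chr9:86554377-86571842, minus strand), the phosphoglucomutase of the pathway, overlapped between the groups, at 14.04, 14.1 and 17.11 CPM in NaCl tumors and 11.55, 13.32 and 15.13 CPM in H89 tumors. Its log2 fold change was -0.18 (SE 0.146). Its exons overlap Dop1a on the opposite strand, and whether the counting used strand is not given in the sources used here.

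Uap1 (chr1:170141938-170174957, minus strand), whose product makes UDP-GlcNAc itself, had the steadiest values. NaCl tumors held 64.75, 63.09 and 62.64 CPM and H89 tumors 54.65, 54.84 and 58.9 CPM. All H89 tumors lay below the NaCl tumors, by a small margin. The log2 fold change of Uap1 was -0.18 (SE 0.074), and with library totals in place of TMM its groups overlapped.

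The 5 enzymes that make UDP-GlcNAc had log2 fold changes between -0.63 and 0.36. Of the 6 genes, 1 (Ogt) had all H89 tumors above the NaCl tumors, 2 (Gnpnat1, Uap1) had all below and 3 overlapped. The same pattern was found in 15.2% (above) and 15.5% (below) of the 13118 genes tested. With library totals, 1 of the 6 was above and 1 below, where all genes gave 20.5% and 10.0%. The counts of calls that follow only describe the 6 genes, and nothing is read from them, because Ogt was chosen for its rise in these tumors. At an adjusted p under 0.05 edgeR counted 1 of the 6 higher (Ogt) and 0 lower, beside 0.861% of all genes higher and 0.724% lower. DESeq2 counted 1 higher (Ogt) and 1 lower (Gnpnat1), beside 5.32% of all genes higher and 5.3% lower. When any 1 tumor was left out, or with the replicate number as a block, edgeR called 0 of the 6. The median log2 fold change of the 6 was 0.03, and that of all genes 0.004.

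**Figure D2:**
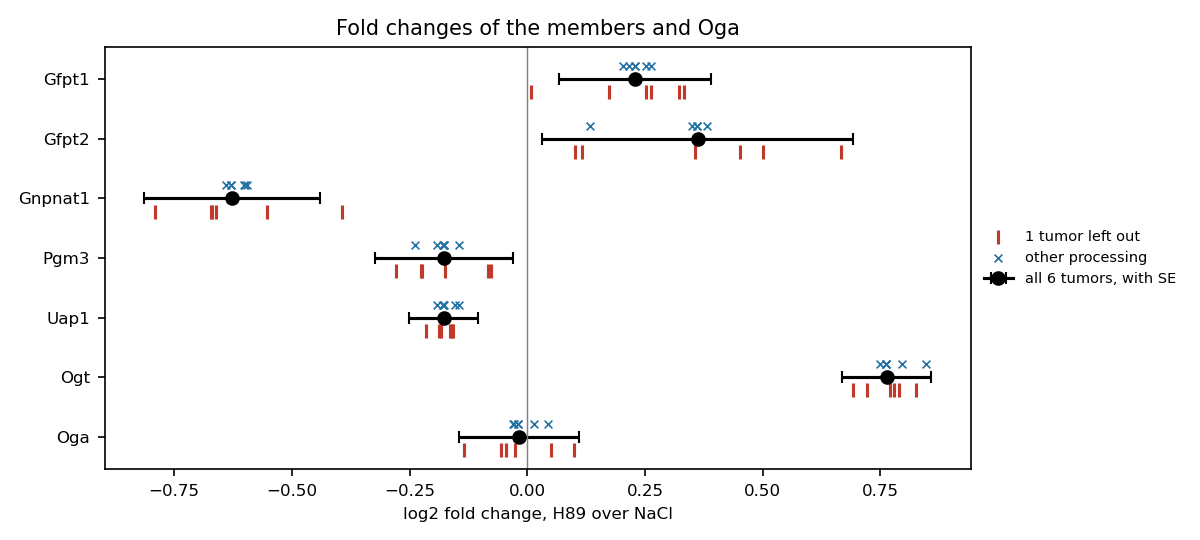
Log2 fold change of H89 over NaCl (horizontal axis) for the 6 genes and Oga. Black points with SE bars use all 6 tumors, red ticks leave out 1 tumor each and blue crosses use other filters, scalings, tests or the replicate block. Ogt stays between 0.69 and 0.85, whereas Gfpt1 comes down to 0.007 without H89 tumor 3 and Oga falls on both sides of 0.

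Within groups the members differed in how steady they were. The pooled SD of log2 levels was 0.106 for Ogt and 0.046 for Uap1, against a median of 0.155 over the genes tested, and 2.4% of genes were steadier than Uap1. It was 0.246 for Gfpt1, 0.289 for Gnpnat1 and 0.417 for Gfpt2, the least abundant. Pgm3 was near the median, at 0.173.

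Levels can be compared between genes only per transcript length. In CPM per kilobase of the longest coding transcript, the NaCl tumors averaged 27.5 for Uap1, 24.2 for Ogt, 17.3 for Gnpnat1, 12.4 for Gfpt1, 5.66 for Pgm3 and 0.913 for Gfpt2. Neighbours in this order did not overlap, but the lowest value of Gnpnat1 (13.14) and the highest of Gfpt1 (13.01) lay closer than the SD of Gnpnat1 (4.74). So did the lowest value of Ogt (22.75) and the highest of Gnpnat1 (22.46). In H89 tumors Ogt led with 41.0 ± 3.71, ahead of Uap1 with 24.3 ± 1.04, and Gfpt1 (14.6 ± 3.57) stood ahead of Gnpnat1 (11.2 ± 1.04) by less than its own SD. By the length of all exons together, Ogt (16.2) and Uap1 (15.8) changed places in the NaCl tumors, and their ranges there overlapped. By that length Gnpnat1 (7.739 to 13.22) and Gfpt1 (7.086 to 8.055) overlapped there too. The order of these genes in control tumors rests on the length used.

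**Figure D3:**
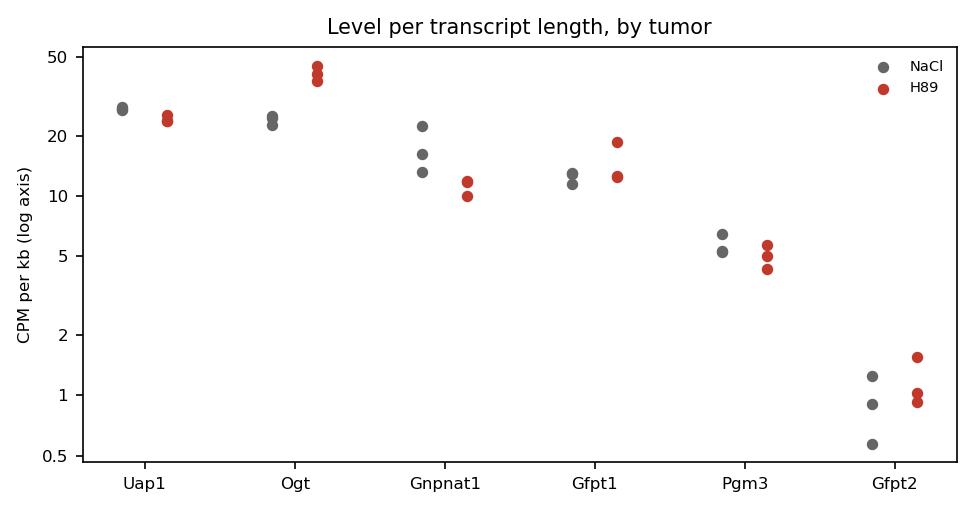
CPM per kilobase of the longest coding transcript (log axis) for each gene in NaCl (grey) and H89 (red) tumors, 1 point per tumor. Ogt passes Uap1 in the H89 tumors, and Gfpt2 lies lowest in all 6.

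Oga, the enzyme that removes O-GlcNAc, is not one of the 6 genes and was tested. It stood at 121.7, 123.0 and 140.1 CPM in NaCl tumors and at 105.5, 128.3 and 146.2 CPM in H89 tumors, which overlapped. The log2 fold change of Oga was -0.02 (SE 0.128, adjusted p = 0.947 by edgeR), and its sign held in 8 of 12 other settings. The log2 ratio of Ogt to Oga was 0.127, -0.0057 and -0.054 in NaCl tumors and 0.937, 0.771 and 0.726 in H89 tumors. The ratio did not overlap between the groups, as Ogt alone did not. Eogt, which adds O-GlcNAc to proteins outside the cell, had a log2 fold change of 0.06 (SE 0.124, adjusted p = 0.798).

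Of 60 further genes of the pathway, 58 were abundant enough to be tested, all except Tet1 and Has2. edgeR called 0 higher and 0 lower after adjustment over all genes, while 7 were higher and 12 lower at an unadjusted p under 0.05, which 3285 of all 13118 genes passed in either direction. DESeq2 called 3 higher and 5 lower of the 58, beside 5.32% and 5.3% of all genes. Their median log2 fold change was -0.08. All H89 tumors were above in 6 of the 58 and below in 14, beside 15.2% and 15.5% of all genes.

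**Figure D4:**
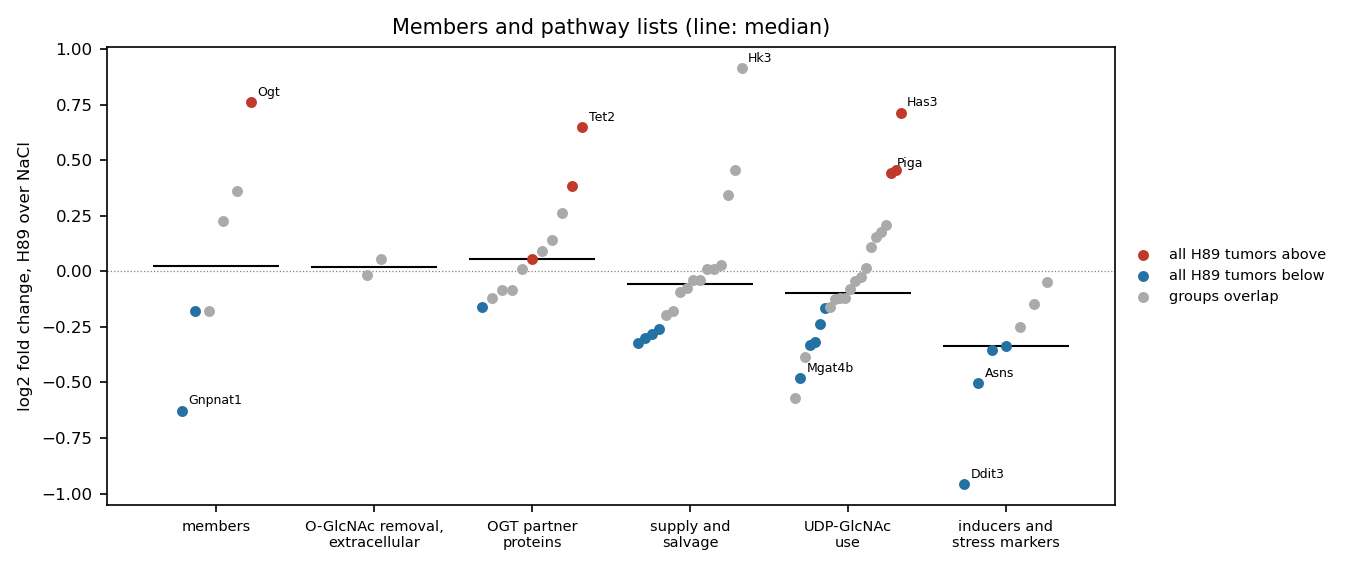
Log2 fold change of H89 over NaCl (vertical axis) for the 6 genes and the pathway lists, 1 point per gene, with the median as a line. Red and blue points have all H89 tumors above or below the NaCl tumors, and grey points overlap. The median of the inducers and stress markers lies at -0.34 and that of the other lists between -0.10 and 0.06.

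Among 11 tested partners of OGT, 0 were called by edgeR. All H89 tumors were above in 3 of them and below in 1 (Bap1, log2 fold change -0.16), beside 15.2% and 15.5% of all genes. Tet2, a 5-methylcytosine oxidase bound by OGT, stood at 14.83, 14.1 and 20.3 CPM in NaCl tumors and at 20.62, 25.64 and 30.88 CPM in H89 tumors. Its log2 fold change was 0.65 (SE 0.191, adjusted p = 0.101 by edgeR and 0.0225 by DESeq2). Asxl2, a cofactor of the BAP1 deubiquitinase complex, had a log2 fold change of 0.39 (SE 0.118, adjusted p = 0.108 by edgeR).

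Of 16 genes that supply or salvage hexosamines, none was called by either tool, 1 was higher and 4 lower at an unadjusted p under 0.05, and all H89 tumors were above in 0 and below in 4, beside 15.2% and 15.5% of all genes. Gnpda1, which returns glucosamine-6-phosphate to glycolysis, had a log2 fold change of -0.30 (SE 0.108, adjusted p = 0.144 by edgeR). Uap1l1, a relative of Uap1, had a log2 fold change of -0.28 (SE 0.105, adjusted p = 0.153).

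A list of 22 tested genes covered the use of UDP-GlcNAc. In it Nans, Nanp and Cmas act later, in sialic acid synthesis, and do not use UDP-GlcNAc themselves. Of the 22, 0 were called by edgeR. All H89 tumors were above in 3 and below in 5, Nans among the latter, beside the same 15.2% and 15.5%. Mgat4b, which branches N-glycans, stood at 130.8, 114.8 and 107.4 CPM in NaCl tumors and at 86.05, 84.06 and 82.6 CPM in H89 tumors. Its log2 fold change was -0.48 (SE 0.092, adjusted p = 0.0503 by edgeR and 0.000518 by DESeq2). Piga, part of the enzyme that starts GPI anchors, had a log2 fold change of 0.44 (SE 0.104, adjusted p = 0.0722 by edgeR and 0.0143 by DESeq2). Alg13, which with Alg14 adds the second GlcNAc of the N-glycan precursor, was named after its values were seen, at a log2 fold change of 0.46 (SE 0.117, adjusted p = 0.0813 by edgeR and 0.0195 by DESeq2). Piga and Alg13 lie on chromosome X like Ogt. There 414 genes were tested, with a median log2 fold change of 0.05, and edgeR called 3 higher and 3 lower. Of all 13118 genes it called 0.861% higher and 0.724% lower.

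A list of 7 genes was read as factors known to induce hexosamine enzymes and as markers of the stress responses that carry them. None was called by edgeR. All H89 tumors were below the NaCl tumors in 4 of the 7 and above in 0, beside 15.5% and 15.2% of all genes, and DESeq2 called these 4 lower, beside 5.3% of all genes. Their median log2 fold change was -0.34. Ddit3, a transcription factor of the stress response, stood at 63.56, 63.76 and 92.74 CPM in NaCl tumors and at 35.14, 32.57 and 45.57 CPM in H89 tumors. Its log2 fold change was -0.96 (SE 0.184, adjusted p = 0.0504 by edgeR and 5.154e-05 by DESeq2). Asns, asparagine synthetase and a target of Atf4, had a log2 fold change of -0.50 (SE 0.117, adjusted p = 0.0721 by edgeR and 0.0018 by DESeq2). Xbp1 and Atf4, named after their values were seen, had log2 fold changes of -0.35 (SE 0.088) and -0.34 (SE 0.083), both with an adjusted p of 0.08 by edgeR. The rest of the list, also named after its values were seen, overlapped between the groups. These were Atf6 (log2 fold change -0.25, SE 0.161), Hspa5 (-0.15, SE 0.129) and Sp1 (-0.05, SE 0.089).

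Across the 6 tumors, the genes whose levels were most like those of Ogt were Zmym6, Nktr, Sf3b1, Alpk1 and Trp53bp1, with a Pearson r of 0.996, 0.995, 0.994, 0.994 and 0.992 among 10463 genes compared. In all, 104 genes had an r above 0.95. The 6 points share the treatment difference, so each r includes that difference. After each group's mean was taken out, r was 0.978 for Zmym6, 0.976 for Nktr, 0.936 for Sf3b1, 0.882 for Alpk1 and 0.845 for Trp53bp1. Because these genes were picked for a high r over the same 6 tumors, high values here were in part fixed by that choice. The spread of such r over the 10463 genes was not examined, so the values are not read as likeness apart from the treatment. Zmym6 stood at 16.33, 14.38 and 16.33 CPM in NaCl tumors and at 22.32, 23.74 and 26.58 CPM in H89 tumors. Nktr, a cyclophilin-like protein of natural killer cells that many other cells also express, stood at 75.15, 71.46 and 76.93 CPM in NaCl tumors and at 97.99, 102.8 and 116.3 CPM in H89 tumors. Sf3b1, a core subunit of the U2 spliceosomal particle, stood at 190.7, 187.3 and 204.0 CPM in NaCl tumors and at 250.5, 267.3 and 288.1 CPM in H89 tumors. For the enzymes of the pathway, r with Ogt was 0.612 for Gfpt1, 0.506 for Gfpt2, -0.35 for Pgm3, -0.712 for Gnpnat1 and -0.831 for Uap1. After the group means were taken out it was positive for each of them, at 0.869 for Gfpt1, 0.388 for Gfpt2, 0.855 for Pgm3, 0.357 for Gnpnat1 and 0.76 for Uap1, and 0.893 for Oga. How many of all genes had a positive r of this kind was not counted, so these values are not read as particular to the pathway. The values over all 6 tumors include the difference between the groups.

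The tumors are mixtures of cancer and host cells. Summed fibroblast markers were 2599 to 2845 CPM in NaCl tumors and 2922 to 3704 in H89 tumors. All H89 tumors were above in 4 of the 9 genes, beside 15.2% of all genes. By edgeR 0 of the 9 were called, beside 0.861% of all genes higher and 0.724% lower. Summed leukocyte markers were 199.5 to 337.9 and 285.9 to 544.4 CPM, which overlapped, and the most abundant of them was Csf1r, with a log2 fold change of 0.11 (SE 0.246). All 9 leukocyte markers had positive log2 fold changes, with a median of 0.96. Of the 9, 2 (Ptprc and Cd79a) were above in all H89 tumors and 0 were called, beside the same shares of all genes. Ptprc, which encodes CD45, had a log2 fold change of 1.01 (SE 0.205), Cd8a 1.76 (SE 0.525) and Ncr1 1.46 (SE 0.453). Cd8a and Ncr1 overlapped between the groups, and both were highest in H89 tumor 3, at 18.04 and 9.218 CPM. Endothelial markers were 83.07 to 141.7 and 69.97 to 108.0 CPM, and adipocyte markers 11.23 to 35.03 and 12.84 to 25.86 CPM. Most of each adipocyte sum was Fabp4, with means of 24.69 CPM in NaCl and 18.3 CPM in H89 tumors, the only 1 of the 5 abundant enough to be tested. The 8 epithelial markers, of which 4 were abundant enough to be tested, summed to 14.97 to 26.51 CPM in NaCl tumors and 11.45 to 15.68 in H89 tumors. Most of each sum was Krt18, with a log2 fold change of -1.04 (SE 0.233). Krt8 (1.03, SE 0.859), Krt19 (2.56, SE 1.148) and Cdh1 (0.055, SE 0.447) had positive values, and the median of the 4 was 0.54. Krt8 and Krt19 were highest in H89 tumor 1, at 2.176 and 2.533 CPM, against at most 1.353 and 0.396 CPM in any other tumor. The positive values of Krt8 and Krt19 thus rest largely on that tumor. The colon epithelial markers Cdx1, Cdx2 and Vil1 were at or under 0.304 CPM in every tumor. Keratinocyte markers, 2 of 7 of them at 0 in every tumor, summed to 2.052 to 3.65 CPM, most of it Krt10. Skeletal muscle markers stood apart in H89 tumor 1, at 18.84 CPM against 0.951 to 2.34 elsewhere, and without that tumor the log2 fold change of Ogt was 0.825. The part of the fibroblast and leukocyte differences in the levels above was not tested.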

How the data were processed

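Total RNA of 6 CT26 tumors (3 NaCl, 3 H89) was sequenced, and group and replicate were taken from the labels. The authors deposited 1 table of 23557 genes, called TPM, whose values are estimated counts per gene, since they sum to 27067349 to 31958793 per tumor and are not scaled. The submitters' processing notes name kallisto, DESeq2 and GRCm38, without versions; strand and annotation are not given in the sources used here. These depths bear on counting error only, which was not measured on its own.

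Estimated counts were rounded. Genes with a mean of at least 0.5 CPM (13118) were tested with edgeR 4.0.16 (R 4.3.3), by TMM scaling and the quasi-likelihood test, with Benjamini-Hochberg adjustment over all of them. The script was tested on simulated data. Positions are those of GENCODE M21, and promoters those of RefSeq for GRCm38.p6, matched by symbol for 5 of 6 genes. Likeness used log2(CPM + 0.5) of genes with a mean of at least 5 CPM.

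The members and lists were chosen with earlier results of these data known. Named are the 6 members, Oga, the 5 genes most like Ogt, and of each list the called genes (at most 4) or, with none called, the 2 with the smallest p. Alternatives were no filter, at least 5 CPM, median ratio size factors, quantile normalization with limma 3.58.1, DESeq2 1.42.0, a replicate block, leaving out each tumor and, chosen after seeing the data, library totals. A pseudocount of 1 was tried for likeness.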

Additional observations from a re-analysis of the deposited data

How the results depend on the processing

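The counts of genes called depended on the tool, while the sign of the log2 fold change of the 6 members did not. For Gfpt1, Gfpt2 and Pgm3 that sign is not a clear direction, since their groups overlapped. Gfpt1 came down to 0.007 without H89 tumor 3. Of 13118 genes, edgeR called 113 higher and 95 lower in H89 tumors (54.3% of calls higher). Without a filter it called 144 and 167 of 18837 genes, at a mean of at least 5 CPM 124 and 73, and with median ratio size factors 123 and 128 (49.0% higher). Quantile normalization with limma gave 55 and 25 (68.8% higher), and DESeq2 698 and 695. With 1 tumor left out, edgeR called 0 to 11 higher and 0 to 2 lower, and Ogt was not among the calls. These fits have fewer tumors. Of the 58 further pathway genes tested, 0 were called higher and 0 lower; DESeq2 gave 3 higher and 5 lower, and the unfiltered and median ratio fits 2 lower each (Mgat4b and Ddit3).

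With the replicate block, 0 genes were called higher and 0 lower, with 3750 at an unadjusted p under 0.05 against 3285 without it, and the log2 fold change of Ogt was 0.76. Tumors with the same number deviated from their group means with r of 0.163, 0.061 and -0.025, so the number was not taken as a pairing, and not every tumor correlated best with its own number.

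All 12 alternatives (11 for Gfpt2) kept the sign of each member; Oga changed sign in 4 of 12. Gfpt2 had the fewest counts of the 6 genes. The cause of the differences between tools was not tested.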
